A study of Rattus norvegicus with 36 samples.

Results

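The 10 genes described here encode the enzymes that hydroxylate and cross-link collagen. They were chosen by name, as the alpha subunits of the collagen prolyl 4-hydroxylases (*P4ha1*, *P4ha2* and *P4ha3*), the lysyl hydroxylases (*Plod1*, *Plod2* and *Plod3*) and the lysyl oxidases (*Lox*, *Loxl1*, *Loxl2* and *Loxl3*). All 10 were found among the 24275 genes of the joined count table, each under 1 identifier and listed as protein coding.

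The cells were H9C2, a myoblast line derived from rat heart, and all groups came from this line. An RNA mimic was given at 25 nmol/L for 24 h, and was a mimic control (MC), miR-125b itself, or one of the 3′ isomiRs of miR-125b named Trim AGU, Trim AG, Trim A and Plus A. The next 24 h were spent either in normoxia with fresh DMEM, or in hypoxia below 0.2% O2 with DMEM that was low in glucose and free of serum, so the effect of oxygen cannot be told apart from that of the medium. Each of the 12 groups of mimic and oxygen had 3 libraries of poly-A RNA, and counts of 33 libraries in 11 groups were analysed. Normoxia MC was used only through the authors' group means. Nothing read here says whether the 3 libraries of a group came from separate cultures, so p-values measure the spread between these libraries, which may be technical.

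Collagen chains are modified in the endoplasmic reticulum before they are secreted. Prolyl 4-hydroxylase, a complex of an alpha subunit with *P4hb*, makes the hydroxyproline that keeps the triple helix stable at body temperature, and lysyl hydroxylases make the hydroxylysine that is later glycosylated or cross-linked. Outside the cell the copper enzymes of the lysyl oxidase family oxidise lysines of collagen and elastin, which starts their cross-linking and stiffens the matrix. The hydroxylases use oxygen as a substrate, and several genes of these families (*P4ha1*, *P4ha2*, *Plod2*, *Lox* and *Loxl2*) are known targets of the hypoxia-inducible factors (HIF). In the heart these enzymes are best known from fibrosis, in which cross-linked collagen accumulates.

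The 5 mimics of the miR-125b family differ only at the 3′ end, and their sequences are shown because every comparison of isomiRs rests on that end. The mature sequence is that of rat miR-125b-5p in RefSeq (GRCr8, chr11:29732588-29732609, plus strand), and the isomiRs were written from it by adding or removing the bases in their names. Capitals mark the seed, bases 2 to 8, which all 5 share.
miR-125b: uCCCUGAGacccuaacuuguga
Plus A: uCCCUGAGacccuaacuugugaa
Trim A: uCCCUGAGacccuaacuugug
Trim AG: uCCCUGAGacccuaacuugu
Trim AGU: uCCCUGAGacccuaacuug
The mimics are thus 19 to 23 bases long, with 22 in miR-125b itself.

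Totals per library ranged from 28361216 to 42672584 counts, and the 3 highest belonged to Hypoxia Trim AG (39940087 to 42672584). The myoblast genes *Myod1* (17.1 to 146 CPM, counts per 1000000 counts of a library) and *Vim* (2468 to 4624 CPM) were present in every library, while *Myf5* and *Pax7* did not exceed 0.0703 and 0.549 CPM. *Des*, also a myoblast gene, lay at 0.855 to 4.98 CPM. The cardiomyocyte gene *Myh6* and the leukocyte gene *Ptprc* stayed at or near 0, with highest values of 0.894 and 0.188 CPM. Of the other cardiomyocyte genes, *Gata4* was present in every library (8.72 to 16.4 CPM). *Nkx2-5*, *Actn2* and *Tnni3* did not exceed 0.987, 2.30 and 3.43 CPM. The differentiation genes *Myog* (10.4 to 359 CPM) and *Tnnt2* (9.22 to 316 CPM), the latter also a cardiomyocyte gene, varied between groups. The fibroblast gene *Thy1* (79.8 to 261 CPM) did so too. Of the other fibroblast genes, *Dcn* ranged from 0.797 to 44.2 CPM and *Pdgfra* did not exceed 0.846 CPM. The part of these genes in the results was not tested. Of 11 tested genes known as HIF targets, 9, 8, 8, 5 and 9 were called higher in hypoxia under miR-125b, then Plus A, then Trim A, then Trim AG and then Trim AGU. Libraries of the 3 Trim isomiRs in hypoxia spread more than the others and carried a trend on gene length. The slope of a library's log2 CPM, taken as the difference from Hypoxia MC, was -0.307 per doubling of gene length in Hypoxia Trim AGU replicate 2 and -0.151 and -0.141 in replicate 2 of Trim AG and Trim A, against -0.146 to -0.100 in replicate 3, -0.065 to -0.012 in replicate 1 and -0.069 to 0.018 in the other hypoxia libraries. Hypoxia Trim AGU replicate 2 also had the fewest genes with a count, 16981, against 18342 to 19451 in the other libraries. As an alternative, the trend on gene length was removed from the difference between the compared groups. Every library of a group got the same correction, so the spread between its libraries stayed. Values of this alternative are given where it changes a call, and the part of the trend was not tested otherwise. It was not run for the interactions described below, so their calls were not refitted without the trend. A pair of normoxia libraries may also be exchanged. *Cav1*, a gene outside the families that was singled out after its values were seen, lay at 102, 282 and 263 CPM in Normoxia miR-125b and at 269, 98.0 and 98.3 CPM in Normoxia Plus A, so the first replicate of each resembled the other group. Calls that rest on these libraries were also tested with each left out. The authors' means of Normoxia Plus A and the correlations of group means are given only with them.

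All 10 enzymes were well expressed. On the authors' FPKM scale, which corrects for gene length and allows levels of different genes to be compared, *P4ha1* had the highest mean over the 33 libraries at 157 FPKM (67.6 to 269.7). *Lox* followed at 115 FPKM (24.3 to 192), then *Plod3* at 101 FPKM and *Loxl2* at 84.7 FPKM (26.9 to 195). *P4ha3* (75.2 FPKM), *Plod2* (72.0 FPKM), *Plod1* (58.9 FPKM), *Loxl1* (57.5 FPKM), *P4ha2* (54.0 FPKM) and *Loxl3* (44.9 FPKM) were lower. The ranges of neighbours in this order overlapped in every case, and even the lowest, *Loxl3*, lay above 84.5% of the 13162 expressed genes. As a ratio of the highest to the lowest library, *Lox* and *Loxl2* had the widest ranges, and the plot of CPM in every library shows in which groups they moved.

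**Figure D1:**
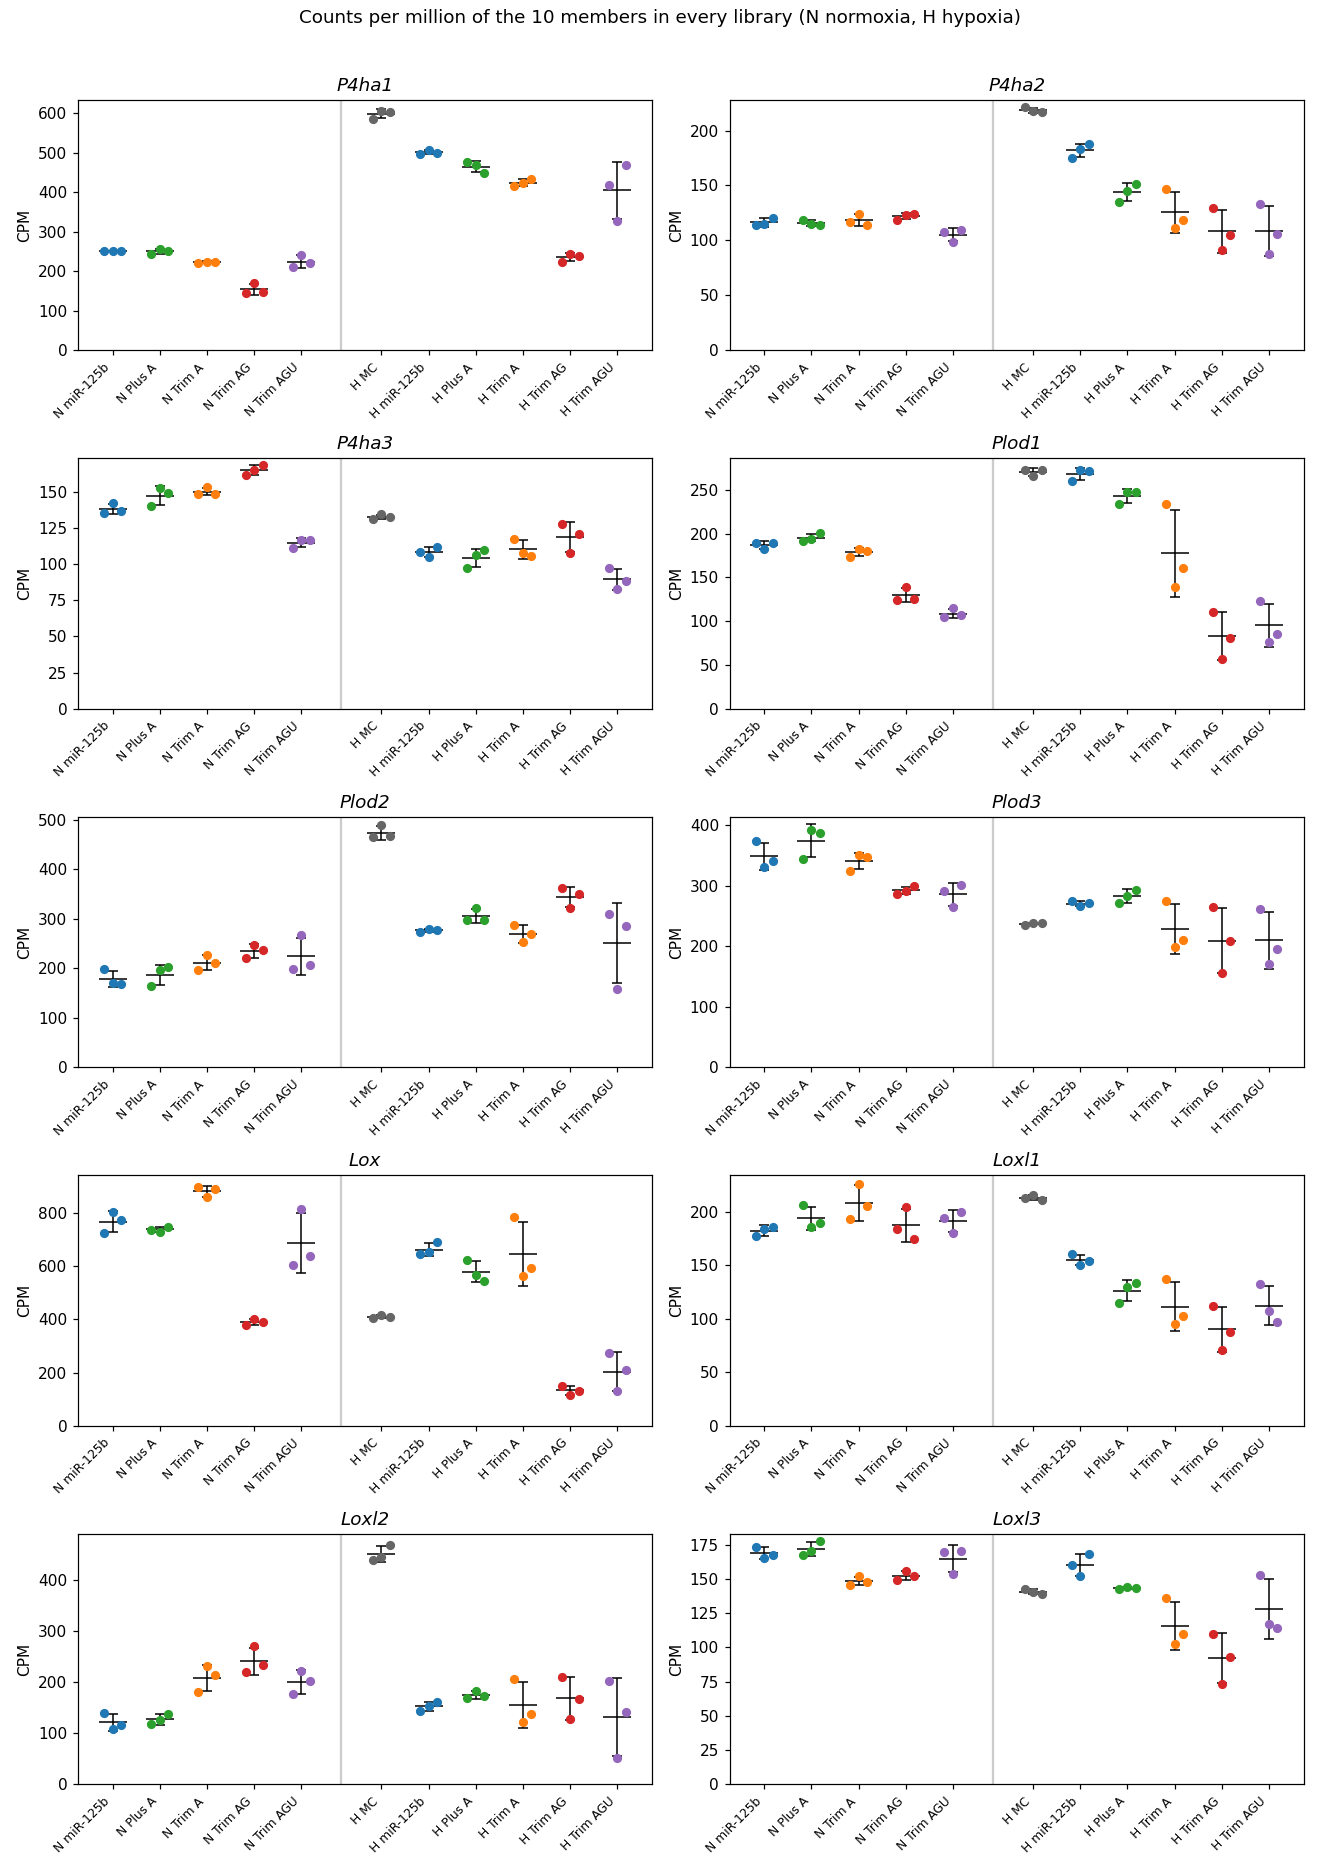
CPM of each enzyme gene (y axis, from 0) in each of the 33 libraries, by group (x axis, N for normoxia and H for hypoxia). Points are libraries in replicate order and black bars the mean ± SD (n = 3). *Lox* stood at 405 to 416 CPM in Hypoxia MC, above that in the libraries of Trim A, Plus A and miR-125b in hypoxia, and below it in Hypoxia Trim AG and Trim AGU.

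The first comparison set hypoxia against normoxia under each mimic. *P4ha1* was the only one of the 10 genes called in all 5, and it rose each time, by 1.54-fold to 1.89-fold. Of the lysyl oxidases, *Loxl1* fell under Plus A and the 3 Trim isomiRs, *Lox* fell under Trim AG and Trim AGU, and *Loxl3* fell under Trim AG. No lysyl oxidase was called under miR-125b, and *Loxl2* was called under no mimic. Here and below, a call needs a change of at least 1.5-fold and an adjusted p (Benjamini-Hochberg) below 0.05.

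Many genes of the whole table were called too. Under miR-125b, 9.34% of 15028 genes were called higher and 11.5% lower, and 1 of the 10 enzymes was called higher and 0 lower. Under Plus A the shares were 10% and 12.8% of 15032 genes, with 2 and 2 enzymes. Under Trim A they were 12% and 14.5% of 14973 genes, with 1 and 2 enzymes. Under Trim AG they were 15% and 17.8% of 15256 genes, with 1 and 4 enzymes, and under Trim AGU 13.6% and 13.4% of 14811 genes, with 1 and 2 enzymes. The median log2 fold change of the 10 enzymes was 0.05, -0.09, -0.47, -0.50 and -0.32 in the same order, while that of all genes lay between 0.00 and 0.02.

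*P4ha1*, the main catalytic subunit of prolyl 4-hydroxylase in most cells, held 251, 250.2 and 252 CPM in Normoxia miR-125b and 497, 507 and 499.8 CPM in Hypoxia miR-125b. Under Trim AG, where it was lowest, it held 144, 171 and 147 CPM in normoxia and 225, 244 and 238 CPM in hypoxia. The groups did not overlap under any mimic. The same held, in either direction, for 52.2% to 63.2% of all genes tested under a mimic. The log2 fold change was 0.92 ± 0.038 (SE, n = 3 libraries a group, adjusted p = 2.43e-07) under miR-125b, 0.79 under Plus A, 0.85 under Trim A, 0.62 ± 0.093 (adjusted p = 0.000511) under Trim AG and 0.89 ± 0.15 (adjusted p = 0.00499) under Trim AGU. Without Normoxia Trim AG replicate 1 the change under Trim AG was 0.58, just short of 1.5-fold.

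*P4ha2*, which encodes an alternative alpha subunit, was called under no mimic. Its level in Normoxia miR-125b was 114, 115 and 121 CPM and in Hypoxia miR-125b 175, 183 and 187 CPM, a log2 fold change of 0.56 ± 0.046 (adjusted p = 1.05e-05) that missed the fold threshold and passed it without Hypoxia miR-125b replicate 1 (0.59). Under Trim A, Trim AG and Trim AGU the log2 fold changes were 0.01, -0.17 and 0.08, with 95% intervals of -0.23 to 0.24, -0.43 to 0.09 and -0.26 to 0.42. *P4ha3*, the remaining alpha subunit, had lower values in hypoxia under every mimic. Only the difference under Plus A was called, from 140.1, 153 and 149 CPM to 97.2, 106 and 109.8 CPM (-0.61 ± 0.067, adjusted p = 5.75e-05), and the call was lost without Normoxia Plus A replicate 2 (-0.58) or Hypoxia Plus A replicate 1 (-0.56) and with library size only (-0.50). With the length trend removed it was also called under Trim A (-0.61).

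Among the lysyl hydroxylases, *Plod2*, which acts on the telopeptides of collagen, was called only under Plus A. Its libraries there held 164, 196 and 201 CPM in normoxia and 296, 322 and 298 CPM in hypoxia (0.60 ± 0.085, adjusted p = 0.000335). That call sat at the threshold, and it was lost without Normoxia Plus A replicate 1 (0.49) or Hypoxia Plus A replicate 2 (0.56), with DESeq2 (0.58) and with no filter on low counts (0.58). Under miR-125b the log2 fold change was 0.55 ± 0.064, and 0.62 without Normoxia miR-125b replicate 1, which made it a call, as did removing the length trend (0.59). Replicate 1 of Normoxia miR-125b and of Normoxia Plus A are the libraries that may be exchanged. *Plod2* held 198, 170 and 169 CPM in Normoxia miR-125b, so its replicate 1 values also lay nearer the other group. Whether an exchange gave the contrast between these mimics was not tested. Under Trim AG it was 0.56, and 0.60 without replicate 2 of either group and 0.69 with the length trend removed, again past the threshold. Under Trim AGU it held 199, 266 and 207 CPM in normoxia and 310, 158 and 285 CPM in hypoxia, so the groups overlapped (0.18, 95% interval -0.34 to 0.71).

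*Plod1*, which hydroxylates lysines of the helix, was 190, 182 and 190 CPM in Normoxia miR-125b and 261, 273 and 272 CPM in Hypoxia miR-125b (0.44 ± 0.042, not called). Under Trim AG it went the opposite way, from 124, 139 and 126 CPM to 111, 57.1 and 81.4 CPM (-0.64 ± 0.19, adjusted p = 0.0189). The groups did not overlap, but the 3 hypoxia libraries lay far apart, and the call was lost without Normoxia Trim AG replicate 2 (adjusted p = 0.0676), Hypoxia Trim AG replicate 2 (log2 fold change -0.43) or Hypoxia Trim AG replicate 3 (adjusted p = 0.0542). It was also lost with the length trend removed, where the change was -0.56. *Plod3*, a lysyl hydroxylase that also glycosylates hydroxylysine, had lower values in hypoxia under every mimic. It was called under Trim A only (-0.66 ± 0.12, adjusted p = 0.00188), from 325, 350.2 and 347 CPM to 275, 198 and 211 CPM, and without Hypoxia Trim A replicate 2 the change was -0.58 and no longer called, as with library size only (-0.58). Without Normoxia Plus A replicate 1, a library that may be exchanged, it was called under Plus A (-0.60). It held 344, 393 and 388 CPM in Normoxia Plus A and 374, 331 and 341 CPM in Normoxia miR-125b. Without Hypoxia Trim AG replicate 1 it was called under Trim AG (-0.67).

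*Lox*, the founding lysyl oxidase, was lower in hypoxia by less than 1.5-fold under miR-125b (-0.29), Plus A (-0.46) and Trim A (-0.53). Under Trim AG it fell from 379.7, 400.3 and 389 CPM to 149, 117 and 132 CPM (-1.55 ± 0.096, adjusted p = 3.50e-06), and under Trim AGU from 605, 816 and 639 CPM to 272, 129 and 211 CPM (-1.73 ± 0.25, adjusted p = 0.0028). Every hypoxia library of both isomiRs lay below every normoxia library. Leaving out Hypoxia Trim A replicate 1 brought the change under Trim A to -0.68, which was then called.

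*Loxl1*, which is best known for cross-linking elastin, held 207, 186 and 189.7 CPM in Normoxia Plus A and 115, 129.9 and 134 CPM in Hypoxia Plus A (-0.73 ± 0.068, adjusted p = 2.04e-05). Its log2 fold change was -0.98 under Trim A, -1.05 under Trim AG and -0.73 under Trim AGU, all called, and -0.32 under miR-125b, which was not. The call under Trim AGU was lost without Normoxia Trim AGU replicate 3 (adjusted p = 0.0559). *Loxl2*, which cross-links collagen IV of basement membranes, was called under no mimic, with log2 fold changes of 0.25 and 0.35 under miR-125b and Plus A and of -0.51, -0.52 and -0.60 under the 3 Trim isomiRs. It was called lower under Trim A without replicate 1 of Normoxia (-0.60) or of Hypoxia Trim A (-0.76), and under Trim AG without Hypoxia Trim AG replicate 1 (-0.70). *Loxl3* was called under Trim AG alone, from 149, 156 and 153 CPM to 109.9, 73.3 and 92.8 CPM (-0.73 ± 0.13, adjusted p = 0.00117).

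**Figure D2:**
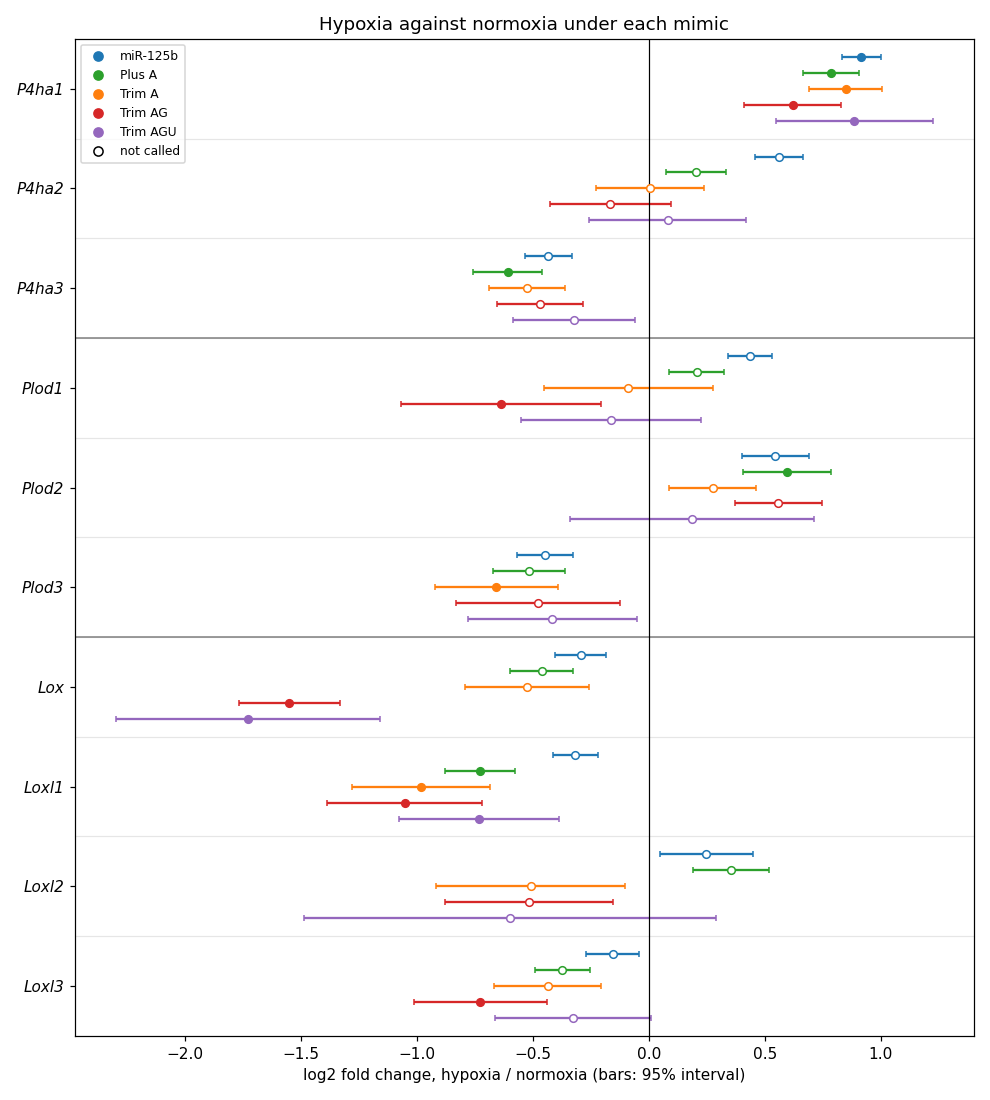
Log2 fold change of hypoxia over normoxia (x axis) for each enzyme gene (y axis) under each of the 5 mimics (colours). Points are edgeR estimates with 95% intervals, filled where called. *P4ha1* is filled and to the right of 0 under all 5, at 0.62 to 0.92, and *Loxl1* is to the left of 0 under all 5.

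The promoters of *P4ha1*, *P4ha2* and *Plod2* are shown because these are known HIF targets and the 3 of the family whose windows hold ACGTG. The RefSeq table (GRCr8) held the window from 250 bases before to 50 bases after the start for 8 of the 10 genes, and not for *Lox* and *Loxl2*. Capitals mark ACGTG and GCGTG, the core of the hypoxia response element, on either strand.
*P4ha1* (chr20:27844796-27845095, plus strand): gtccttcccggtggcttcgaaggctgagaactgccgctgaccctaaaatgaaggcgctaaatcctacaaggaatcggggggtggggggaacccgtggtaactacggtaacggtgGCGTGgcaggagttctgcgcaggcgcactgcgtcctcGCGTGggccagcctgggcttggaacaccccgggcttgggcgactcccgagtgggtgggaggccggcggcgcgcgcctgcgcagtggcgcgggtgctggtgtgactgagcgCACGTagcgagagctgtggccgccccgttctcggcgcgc
*P4ha2* (chr10:38743644-38743943, plus strand): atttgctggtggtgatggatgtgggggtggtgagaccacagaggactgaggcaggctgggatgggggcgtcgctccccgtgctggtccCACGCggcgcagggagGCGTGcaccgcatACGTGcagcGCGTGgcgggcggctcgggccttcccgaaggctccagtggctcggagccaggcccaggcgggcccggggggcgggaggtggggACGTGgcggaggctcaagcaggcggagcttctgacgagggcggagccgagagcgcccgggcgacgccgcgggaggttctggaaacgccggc
*Plod2* (chr8:101964068-101964367, plus strand): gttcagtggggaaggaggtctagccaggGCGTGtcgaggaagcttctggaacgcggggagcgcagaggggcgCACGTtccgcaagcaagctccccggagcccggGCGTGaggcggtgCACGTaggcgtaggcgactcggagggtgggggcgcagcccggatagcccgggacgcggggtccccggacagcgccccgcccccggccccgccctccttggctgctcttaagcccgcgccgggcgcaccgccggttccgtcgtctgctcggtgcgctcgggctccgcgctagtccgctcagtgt
ACGTG occurred in these 3 of the 8 windows, and in 19.25% of all 33469 windows of that length. In *P4ha2* it lay 133 and 41 bases before the start, in *Plod2* 178 and 133 bases before it, and in *P4ha1* 11 bases after it. GCGTG occurred in 6 of the 8 windows (*P4ha1*, *P4ha2*, *Plod1*, *Plod2*, *Plod3* and *Loxl3*) against 29.7% of all windows. The longer TACGTG, which contains ACGTG, was in the same 3 windows and in 3.49% of all. A match is a description of the letters in these windows and not of a bound site.

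The next comparison set each mimic against MC in hypoxia. *Loxl2* fell with all 5 mimics, by 2.54-fold to 3.18-fold, and no other of the 10 genes was called with all 5. *Plod2* fell with Trim AGU, Trim A, Plus A and miR-125b. *Lox* was higher than MC with miR-125b and Trim A, and lower with Trim AG and Trim AGU. As the libraries are of bulk RNA, fewer cells that express a gene and less of its RNA per cell cannot be told apart.

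With miR-125b 9.43% of 15143 genes were called higher than MC and 12.5% lower, with 1 and 2 of the 10 enzymes. With Plus A the shares were 10.5% and 14.4% of 15159 genes, with 0 and 3 enzymes. With Trim A they were 12.4% and 15.7% of 15183 genes, with 1 and 4 enzymes. With Trim AG they were 17% and 20.2% of 15315 genes, with 0 and 6 enzymes, and with Trim AGU 11.4% and 12.4% of 15026 genes, again with 0 and 6 enzymes. The median log2 fold change of the 10 enzymes was -0.22, -0.33, -0.51, -1.07 and -0.79 in this order, and that of all genes was -0.02 to 0.00. These 5 comparisons share the 3 MC libraries. Between a mimic and MC, the libraries of 55.1% to 66.8% of all genes did not overlap, in either direction.

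*P4ha1* held 586, 607 and 604 CPM in Hypoxia MC, the highest group mean of any. With Trim AG it held 225, 244 and 238 CPM (-1.28 ± 0.075 on the log2 scale, adjusted p = 3.09e-06). With the other 4 mimics its log2 fold change was -0.45 to -0.22 and was not called, and the 3 libraries of Hypoxia Trim AGU ranged from 328 to 470.1 CPM. *P4ha2* held 221, 218 and 217 CPM with MC, 175, 183 and 187 CPM with miR-125b, 135, 145 and 152 CPM with Plus A and 129, 90.8 and 105 CPM with Trim AG, and every library of these mimics lay below MC. It was called with Trim A (-0.76), Trim AG (-0.95 ± 0.12, adjusted p = 0.000146) and Trim AGU (-0.87 ± 0.13, adjusted p = 0.00467). The value with Plus A was -0.58, and -0.59, -0.60 and -0.62 without Hypoxia MC replicate 2, Hypoxia MC replicate 3 and Hypoxia Plus A replicate 3, each of which made it a call. *P4ha3* was called with none, at -0.43 to -0.10.

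*Plod1* showed the largest difference among the lysyl hydroxylases. It held 273, 266 and 273 CPM with MC and 261, 273 and 272 CPM with miR-125b, groups that overlapped (0.02, 95% interval -0.04 to 0.09). It held 111, 57.1 and 81.4 CPM with Trim AG (-1.64 ± 0.19, adjusted p = 0.000127) and 124, 76.1 and 85.8 CPM with Trim AGU (-1.38 ± 0.16, adjusted p = 0.00219). With Trim A it held 234, 139 and 161 CPM (-0.56 ± 0.16, not called), and without Hypoxia Trim A replicate 1 the change was -0.80 and was called, as it was with library size only (-0.61). *Plod2* held 465, 489 and 466 CPM with MC and 273, 279 and 276 CPM with miR-125b (-0.74 ± 0.031, adjusted p = 8.73e-09). Its change was -0.77 under Trim A, -0.61 under Plus A and -0.40 under Trim AG, which was not called, and -0.79 ± 0.21 with Trim AGU. *Plod3* was called with none, at -0.12 to 0.28.

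*Lox* held 405, 416 and 410.1 CPM with MC and 645, 653 and 690.0 CPM with miR-125b (0.73 ± 0.033, adjusted p = 1.43e-08). With Plus A it held 623, 568 and 546 CPM (0.52 ± 0.054, adjusted p = 2.26e-05, under 1.5-fold), and with Trim A 785, 562 and 593 CPM (0.70 ± 0.12, adjusted p = 0.00147). All 9 libraries of these 3 mimics lay above all 3 of MC. With Trim AG it held 149, 117 and 132 CPM (-1.57 ± 0.092, adjusted p = 3.10e-06) and with Trim AGU 272, 129 and 211 CPM (-0.89 ± 0.22, adjusted p = 0.0232), and all 6 libraries lay below MC. Without Hypoxia Trim A replicate 1 the change with Trim A was 0.55, under the fold threshold.

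*Loxl1* held 213, 216 and 211 CPM with MC and 160.3, 151 and 155 CPM with miR-125b (-0.42, not called). It was called with Plus A (-0.73), with Trim A at -0.89, with Trim AG (-1.18 ± 0.14, adjusted p = 0.000142) and Trim AGU (-0.79 ± 0.13, adjusted p = 0.00685). *Loxl2* held 439.8, 445 and 469.5 CPM with MC and 143, 154 and 160.1 CPM with miR-125b (-1.53 ± 0.042, adjusted p = 5.00e-10). It held 168, 183 and 173 CPM with Plus A (-1.35), 206, 121 and 138 CPM with Trim A (2.83-fold lower than MC), 210.2, 127 and 167 CPM with Trim AG (-1.37 ± 0.15) and 202, 51.8 and 142 CPM with Trim AGU (-1.67 ± 0.40). No library of any mimic reached the lowest MC library. *Loxl3* was called with none, and without Hypoxia Trim AG replicate 1 it was called with Trim AG (-0.69).

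With Trim AGU the calls of 3 genes were lost when 1 library was left out, whichever MC library it was. Leaving out any 1 of the MC libraries, or Hypoxia Trim AGU replicate 3, moved the adjusted p of *Plod2* to 0.0608 to 0.0994, of *Lox* to 0.0719 to 0.0835 and of *Loxl2* to 0.0701 to 0.0773, while the log2 fold changes stayed at -0.87 to -0.77, -0.90 to -0.88 and -1.71 to -1.65. With the length trend between the groups removed, *Plod2* (-0.63, adjusted p = 0.0616) and *Lox* (-0.63, adjusted p = 0.0715) were not called with Trim AGU, whereas *Loxl2* was.

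**Figure D3:**
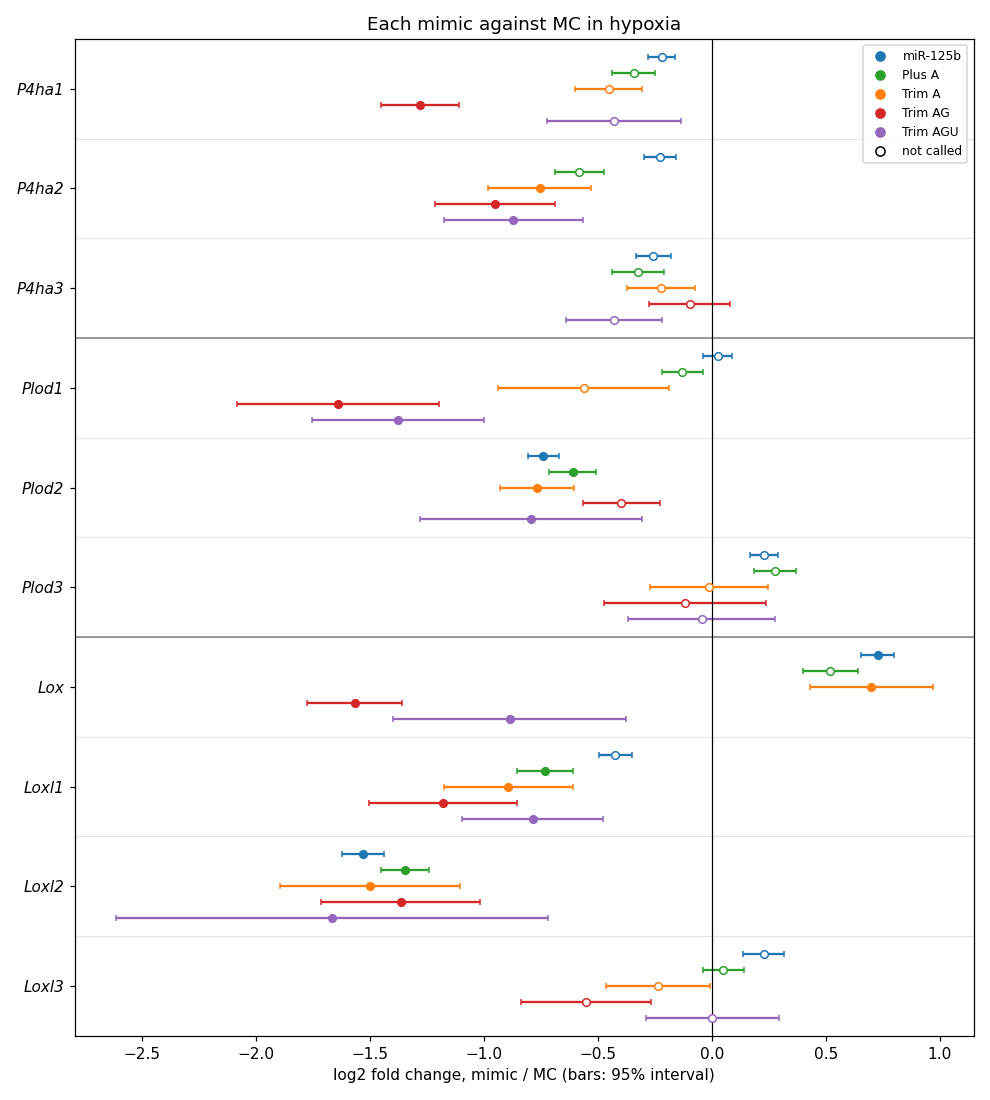
Log2 fold change of each mimic over MC in hypoxia (x axis) for each enzyme gene (y axis), with 95% intervals, filled where called. *Loxl2* is filled and left of 0 for all 5 mimics, and *Lox* is right of 0 for Trim A, Plus A and miR-125b (0.52 to 0.73) and left of it for Trim AG and Trim AGU.

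The next comparison set each isomiR against miR-125b itself in hypoxia, mimics whose sequences differ at the 3′ end. Some of these groups also differed in depth and in the trend on gene length, so a difference cannot be credited to that end alone. Plus A and Trim A moved none of the 10 genes by a call. Trim AG lowered 6 of them (*P4ha1*, *P4ha2*, *Plod1*, *Lox*, *Loxl1* and *Loxl3*), and Trim AGU lowered 3 of those 6 (*P4ha2*, *Plod1* and *Lox*). No enzyme was called higher with any isomiR.

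For Plus A 0.707% of 15134 genes were called higher and 1.32% lower, and for Trim A 0.457% and 0.417% of 15115 genes. Beside the counts of 0 by edgeR, 8 of the 10 enzymes with Plus A and 5 with Trim A had an unadjusted p under 0.05, and DESeq2 called 0 with Plus A and 1 with Trim A (*Plod1*, -0.59). Of all genes 4723 with Plus A and 3547 with Trim A had an unadjusted p under 0.05 by edgeR. For Trim AG 7.85% of 15305 genes were called higher and 11.5% lower, and for Trim AGU 1.83% and 1.93% of 15051 genes. The 4 comparisons share the 3 libraries of Hypoxia miR-125b.

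*Lox* differed most. From 645, 653 and 690.0 CPM with miR-125b it fell to 149, 117 and 132 CPM with Trim AG (-2.30 ± 0.092, adjusted p = 1.04e-05) and to 272, 129 and 211 CPM with Trim AGU (-1.63 ± 0.22, adjusted p = 0.0149). With Trim A the log2 difference was -0.03 (95% interval -0.30 to 0.24) and with Plus A -0.21 (-0.33 to -0.09). *Plod1* came second, at -1.68 ± 0.19 with Trim AG (adjusted p = 0.000375) and -1.41 ± 0.16 with Trim AGU (adjusted p = 0.00896). *P4ha1* was lower with Trim AG (-1.07 ± 0.071, adjusted p = 3.13e-05) and not called with Trim AGU (-0.22, 95% interval -0.51 to 0.06).

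*P4ha2* was lower with Trim AG (-0.73 ± 0.11, adjusted p = 0.0015) and Trim AGU (-0.66 ± 0.13, adjusted p = 0.043). Its values with Plus A (-0.36) and Trim A (-0.53) were smaller and not called. *Loxl1* (-0.77 ± 0.14) and *Loxl3* (-0.79 ± 0.13, adjusted p = 0.00177) were called lower with Trim AG alone. Their differences with Plus A (-0.31 and -0.18, adjusted p = 0.00908 and 0.0272) were below 1.5-fold, and with Trim A both were at -0.47 with 95% intervals of -0.76 to -0.19 and -0.70 to -0.23. *Loxl2*, which all mimics lowered against MC, did not differ by a call between any isomiR and miR-125b, and its intervals were 0.06 to 0.30 with Plus A, -0.37 to 0.42 with Trim A, -0.19 to 0.50 with Trim AG and -1.08 to 0.78 with Trim AGU. The last of these is too wide to bound the difference below 1.5-fold. *P4ha3*, *Plod2* and *Plod3* were not called with any isomiR, at -0.36 to 0.33.

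The calls with Trim AGU were lost when 1 library was left out, whichever library of Hypoxia miR-125b it was. Without any 1 replicate of Hypoxia miR-125b or without Hypoxia Trim AGU replicate 3 the adjusted p was 0.0546 to 0.0767 for *Plod1*, 0.0857 to 0.0917 for *Lox* and 0.139 to 0.226 for *P4ha2*, and *P4ha2* was also under 1.5-fold without Hypoxia Trim AGU replicate 2 (-0.58). With library size only, *P4ha2* was not called (adjusted p = 0.0594). With Trim A, leaving out Hypoxia Trim A replicate 1 gave 3 calls, *P4ha2* (-0.64), *Plod1* (-0.82) and *Loxl1* (-0.64). The share of all genes called in that refit is not given here.

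In normoxia 0, 1, 3 and 2 of the enzymes were called against miR-125b with Plus A, then Trim A, Trim AG and Trim AGU. The members with an unadjusted p under 0.05 numbered 0, 7, 8 and 6, against 8, 5, 8 and 4 in hypoxia. For Plus A 0% of 14781 genes were called higher and 0% lower. DESeq2 called 0 of the 10, and edgeR also called 0 without replicate 1 of both groups. In hypoxia 4723 of 15134, 3547 of 15115, 7732 of 15305 and 3691 of 15051 genes had an unadjusted p under 0.05 by edgeR. In normoxia these were 404, 2758, 7058 and 5590 of the genes tested, with the isomiRs in the same order. For Trim A 0.367% of 14732 genes were called higher and 0.0475% lower, for Trim AG 7.58% and 6.36% of 14864 genes, and for Trim AGU 6.22% and 5.16% of 14720 genes.

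*Loxl2* was higher with each Trim isomiR than with miR-125b. It held 139, 108 and 117 CPM in Normoxia miR-125b, 181, 231 and 214 CPM with Trim A (0.79 ± 0.11, adjusted p = 0.0132), 219, 270.5 and 233 CPM with Trim AG (0.95 ± 0.11, adjusted p = 0.000183) and 176, 223 and 203 CPM with Trim AGU (0.72 ± 0.11, adjusted p = 0.00212). All 9 libraries of the Trim isomiRs lay above the 3 of miR-125b. Of all genes 25.3%, 51.8% and 43.1% did not overlap, in either direction, with Trim A, then Trim AG and Trim AGU. The call with Trim A was lost without Normoxia Trim A replicate 2 (adjusted p = 0.062) or replicate 3 (adjusted p = 0.0639), and with all libraries in 1 fit (adjusted p = 0.132).

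*Lox* and *P4ha1* were lower with Trim AG. *Lox* went from 726, 803 and 774 CPM to 379.7, 400.3 and 389 CPM (-1.02 ± 0.053, adjusted p = 6.29e-06), and *P4ha1* from 251, 250.2 and 252 CPM to 144, 171 and 147 CPM (-0.75 ± 0.072, adjusted p = 6.98e-05). *Plod1* was lower with Trim AGU, at 105, 115 and 107 CPM (-0.79 ± 0.071, adjusted p = 0.000177), and lower by less than 1.5-fold with Trim AG (-0.58 ± 0.062). It was called with Trim AG without Normoxia miR-125b replicate 2 (-0.59) or Normoxia Trim AG replicate 2 (-0.63), and with the length trend removed (-0.59). The other enzymes, *P4ha2*, *P4ha3*, *Plod2*, *Plod3*, *Loxl1* and *Loxl3*, were called with no isomiR in normoxia.

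The difference between the oxygen effects was tested as an interaction, the log2 change from normoxia to hypoxia under an isomiR minus that under miR-125b, called at an adjusted p below 0.05 with no threshold on its size. With Trim AG 11.4% of 15603 genes were called above 0 and 11.3% below, and 7 of the 10 enzymes were below and 0 above. With Trim A the shares were 0.245% and 0.566% of 15534 genes, and *P4ha2* was the enzyme called. With Trim AGU they were 0.612% and 0.354% of 15525 genes, and *Lox* was called. With Plus A they were 0.00642% and 0.0321% of 15569 genes and 0 of the 10 enzymes was called by edgeR, though 7 had an unadjusted p under 0.05 and DESeq2 called 3. How many of all genes had an unadjusted p under 0.05 was not counted for the interactions.

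*Lox* had the strongest interaction, -1.29 ± 0.11 with Trim AG (adjusted p = 1.58e-05) and -1.43 ± 0.25 with Trim AGU (adjusted p = 0.0245). Its oxygen effect was thus -0.29 under miR-125b, -1.55 under Trim AG and -1.73 under Trim AGU. *Plod1* changed sign between mimics, at 0.44 under miR-125b and -0.64 under Trim AG, an interaction of -1.11 ± 0.22 (adjusted p = 0.00356). For *Loxl2* the effects were 0.25 and -0.52, and the interaction -0.80 ± 0.20 (adjusted p = 0.0139). With all libraries in 1 fit it was not called (-0.79, adjusted p = 0.135).

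*P4ha2* differed with Trim AG (-0.77 ± 0.13, adjusted p = 0.00166) and Trim A (-0.55 ± 0.12, adjusted p = 0.0452). *Loxl1* (-0.77 ± 0.17, adjusted p = 0.00603), *Loxl3* (-0.61 ± 0.14, adjusted p = 0.00996) and *P4ha1* (-0.33 ± 0.10, adjusted p = 0.0318) differed with Trim AG. *P4ha3*, *Plod2* and *Plod3* were called with none, and their intervals with Trim AG were -0.27 to 0.12, -0.25 to 0.20 and -0.45 to 0.32.

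Several interaction calls were lost when 1 library was left out, for any of several libraries. *P4ha2* with Trim A was not called without any 1 library other than Hypoxia Trim A replicate 1 (adjusted p = 0.0666 to 0.142), and *P4ha1* with Trim AG was not called without any 1 miR-125b library, Normoxia Trim AG replicate 2 or Hypoxia Trim AG replicate 3 (adjusted p = 0.0536 to 0.0787). The first was also lost with all libraries in 1 fit (adjusted p = 0.0715) and with library size only (adjusted p = 0.0535), and the second with no filter on low counts (adjusted p = 0.0764). *Lox* with Trim AGU was not called without any 1 miR-125b library, Normoxia Trim AGU replicate 2 or 3, or Hypoxia Trim AGU replicate 3 (adjusted p = 0.0605 to 0.0872). Without Hypoxia Trim A replicate 1, 8 enzymes were called with Trim A, all but *P4ha1* and *P4ha3*, among them *Plod1* (-0.76) and *Loxl1* (-0.83). Without Hypoxia Trim AGU replicate 1, 5 were called with Trim AGU, namely *P4ha2* (-0.59), *Plod1* (-0.77), *Lox*, *Loxl1* (-0.48) and *Loxl2* (-1.25). Both libraries left out had the slope on gene length nearest 0 in their group. It was -0.012 for Trim A, against -0.141 and -0.126 in the libraries kept. For Trim AGU it was -0.065, against -0.307 and -0.146. The part of the trend in these calls was not tested. Shares of all genes called in these refits are not given here, and those above are of the main fit.

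**Figure D4:**
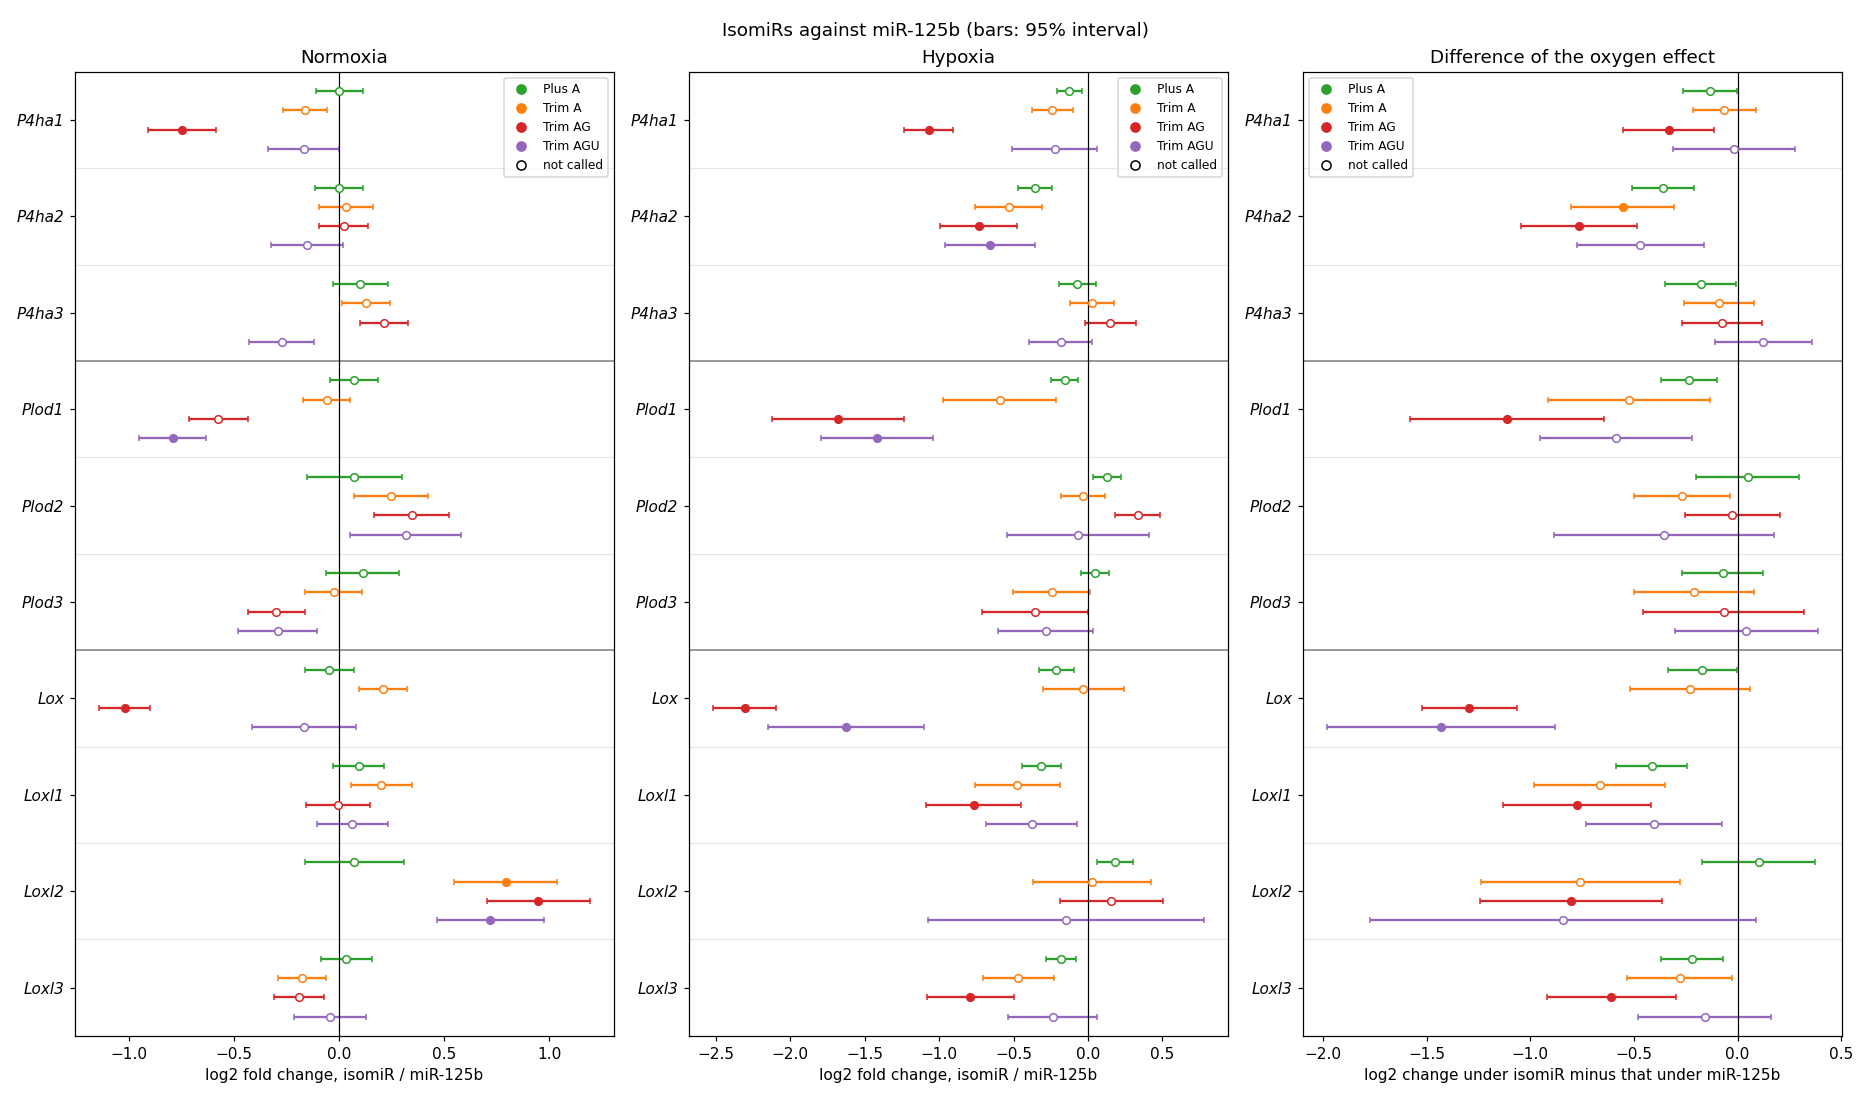
Log2 fold change of each isomiR over miR-125b in normoxia (left) and hypoxia (middle), and the difference of the oxygen effects (right), for each enzyme gene (y axis), with 95% intervals and filled where called. *Lox* and *Plod1* are filled for Trim AG and Trim AGU in hypoxia, and *Loxl2* for the 3 Trim isomiRs in normoxia.

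Other genes of the pathway were taken from a list of 32 that act in the folding, modification, export and cleavage of procollagen or in cross-linking and turnover, of which 30 were found and 26 or 27 tested. The list holds the remaining lysyl oxidase, *Loxl4*, and the transcription factor *Creb3l1*. For hypoxia against normoxia, 1, 1, 0, 1 and 1 of them were called higher and 4, 7, 9, 12 and 7 lower, in the same order of mimics. Of all genes 9.34% to 15% were called higher, and 11.5%, 12.8%, 14.5%, 17.8% and 13.4% lower. *P3h4*, which forms a complex with *P3h3* and *Plod1*, fell under all 5 (-1.09 to -0.66), and so did *Tll1*, a protease of the procollagen C-propeptide (-1.07 to -0.59). *P4hb*, the partner of the alpha subunits, was called in none of the 22 comparisons, at -0.30 to 0.23.

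Against MC in hypoxia, 3, 3, 2, 1 and 0 were higher and 5, 4, 9, 10 and 5 lower, beside 9.43% to 17% of all genes higher and 12.5%, 14.4%, 15.7%, 20.2% and 12.4% lower, and 4 fell with all 5 mimics. *Adamts14*, a procollagen N-proteinase, had log2 fold changes of -3.09 to -1.86, with a mean of 28.5 ± 0.677 CPM (SD, n = 3) with MC and 3.19 ± 1.21 CPM with Trim AG. *Colgalt1*, which adds galactose to hydroxylysine, had log2 fold changes of -2.13 to -1.47. *Fkbp10*, a chaperone that works with *Plod2*, had -1.73 to -1.08, and *Bmp1*, the main procollagen C-proteinase and an activator of *Lox*, had -1.83 to -0.91. Against miR-125b in hypoxia 0 were higher, and 1, 1, 11 and 1 lower with Plus A, then Trim A, Trim AG and Trim AGU, beside 1.32%, 0.417%, 11.5% and 1.93% of all genes. In normoxia 0, 1, 3 and 3 were higher, and 0, 0, 3 and 0 lower, beside 0%, 0.367%, 7.58% and 6.22% of all genes higher and 0%, 0.0475%, 6.36% and 5.16% lower. *Loxl4*, named after its values were seen, was called lower than MC with miR-125b (-0.80) and Trim A (-0.77), and higher than miR-125b in normoxia with Trim AG (0.60) and Trim AGU (0.62).

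The substrates were followed in 7 genes, 6 chains of fibrillar collagens and elastin. Against MC in hypoxia 1, 1, 0, 0 and 0 of them were called higher and 0, 1, 1, 6 and 1 lower, and against miR-125b in hypoxia 0 were higher and 2, 1, 6 and 1 lower, beside the shares of all genes above. In normoxia 0 were higher and 0, 0, 4 and 2 lower, and for oxygen 0 were higher and 0, 1, 3, 5 and 0 lower. Against MC in hypoxia *Col1a1*, which encodes the alpha 1 chain of type I collagen, was called higher with miR-125b (0.76) and Plus A (0.64) and lower with Trim AG (-0.83). *Col1a2* and *Col3a1* were called with Trim AG only, at -0.98 and -1.48. Against miR-125b in hypoxia all 3 were lower with Trim AG, at -1.59 for *Col1a1*, -1.53 for *Col1a2* and -1.88 for *Col3a1*, and *Col1a2* was lower with Plus A (-0.74). *Eln*, which encodes elastin and was named after its values were seen, was the substrate called lower against miR-125b in hypoxia with all 4 isomiRs (-2.13 to -0.96). It was a low gene, with 13.4 ± 1.27 CPM (SD, n = 3) in Hypoxia miR-125b, 6.97 ± 1.53 CPM with Plus A and 3.02 ± 1.09 CPM with Trim AG. Against MC (14.1 ± 0.650 CPM) it was called lower with every mimic except miR-125b (-0.03).

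For Normoxia MC only the authors' group means were at hand, beside those of Normoxia Plus A, with no spread or test. The ratio of Plus A over MC was 1.60 for *Lox*, 1.38 for *Plod1* and 1.29 for *Plod3*. It was 0.430 for *Loxl2*, 0.724 for *Loxl1*, 0.782 for *P4ha2* and 0.862 for *Plod2*. *P4ha1*, *P4ha3* and *Loxl3* had ratios of 1.03, 1.00 and 1.03.

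The genes whose group means of log2 CPM followed an enzyme most closely were looked up over the 11 groups, among 11541 genes. *P4ha1* was closest to AABR07063581.1, a locus known by a clone name (Pearson r = 0.994), then to *Gstm7* (0.989) and *Tmem59* (0.983). *Plod3* was closest to *Rfx4* (0.992), *Egfr* (0.982) and *Rasa4* (0.982), and *Loxl1* to *Fkbp9* (0.983), itself in the pathway list. The next were *Kank4* (0.977) and *Adamtsl4* (0.976). For *P4ha2* the closest were *Atp8b3* (0.974), *Vwa1* (0.969) and *Cant1* (0.960), and for *Loxl3* *Naglu* (0.973), *Papss1* (0.963) and *Ampd2* (0.956). *Siglec10* (0.968), *Xpc* (0.961) and *Suv420h1* (0.958) came first for *Plod2*, and *Cacna1g* (0.966), *Ptpre* (0.960) and AABR07045405.1 (0.956) for *Plod1*. *Fbln7* (0.966), *Nfic* (0.966) and *Sdcbp* (0.956) did so for *Lox*, *Lrp12* (0.962), *Pi4ka* (0.961) and *Ttf2* (0.952) for *Loxl2*, and *Tm6sf1* (0.962), *Qrfpr* (0.958) and *Setd6* (0.957) for *P4ha3*. The points share the contrast of oxygen and the depth of their libraries, so these values describe the groups. Within the 5 normoxia groups the r of *Loxl1* with *Fkbp9* was 0.248.

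Among the enzymes themselves, the same measure was 0.719 for *P4ha1* with *P4ha2*, 0.827 for *Loxl1* with *Loxl3* and 0.779 for *Lox* with *Plod3*. Within the 6 hypoxia groups these were 0.809, 0.753 and 0.8001, and within the 5 normoxia groups -0.429, -0.545 and 0.621, so the sign of the first and second pairs turned in normoxia. *Lox* and *Loxl2* had an r of -0.002 over the 11 groups. *Loxl2* was closest to *Plod2* among the 10, with 0.661 over all groups, 0.951 over the 6 hypoxia groups and 0.972 over the 5 normoxia groups.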

How the data were processed

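Poly-A RNA of H9C2 cells was sequenced in non-stranded libraries, 3 for each of 12 groups. The submitters' processing notes name HISAT2 and StringTie without a role, and the genome build is not given in the sources used here, so coordinates of genes are not printed. The authors deposited 12 tables that each hold a pair of groups. In 11 of them the authors gave raw counts and FPKM values of each gene and library, and these were joined by identifier, with 0 conflicting counts. A gene absent from every table that held a library was given a count of 0 in that library. The expression signal deposited for Normoxia MC is the authors' group mean, with no library values. The tables also hold the authors' own fold changes and p-values, which were not used.

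The counts went into edgeR 4.0.16 under R 4.3.3 (TMM, filterByExpr, quasi-likelihood test), each comparison on its own libraries, and p-values were adjusted by Benjamini-Hochberg over all genes tested. A standard error was taken as the estimate divided by the root of its F statistic. CPM is a count over the library total. Totals were 28361216 to 42672584, and the spread between libraries includes the counting error. Antisense and overlapping genes cannot be told apart without strand. Alternatives were DESeq2 1.42.0, no filter, all libraries in 1 fit, a replicate block, library size only, no fold threshold and each library left out. Another, chosen after seeing the data, removed a lowess trend on gene length (span 0.3) from the difference between the compared groups. It was not run for the interactions. The fits were tested on simulated data.

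The members, lists and tests were chosen with earlier results of these data known. Every member is named. Of the pathway list the genes called in the same direction in every comparison of a family are named, at most 6 per family and direction, with the substrates *Col1a1*, *Col1a2* and *Col3a1*. For each member the 3 genes with a name and a mean of at least 1 CPM whose group means of log2(CPM + 1) correlate best with it are named.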

Additional observations from a re-analysis of the deposited data

Results flagged for a closer look

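In 9 cases the effect of oxygen under an isomiR differed from that under miR-125b by a test of the difference itself, edgeR's interaction term at a Benjamini-Hochberg adjusted p below 0.05. With Trim AG the log2 difference was -0.33 for *P4ha1*, -0.77 for *P4ha2*, -1.11 for *Plod1*, -1.29 for *Lox*, -0.77 for *Loxl1*, -0.80 for *Loxl2* and -0.61 for *Loxl3*. With Trim A it was -0.55 for *P4ha2*, and with Trim AGU -1.43 for *Lox*. With all libraries in 1 fit, *Loxl2* with Trim AG (adjusted p = 0.135) and *P4ha2* with Trim A (adjusted p = 0.0715) were not called. Of 17 alternatives, 14 lost the call of *P4ha2* with Trim A and 10 that of *Lox* with Trim AGU. The call of *P4ha1* with Trim AG was lost in 9 and that of *Loxl2* with Trim AG in 1. The others were lost in 0. All 9 lie below 0, so each gene was lower in hypoxia, relative to normoxia, under the isomiR than under miR-125b. The interactions with Trim AG all rest on the 3 libraries of Hypoxia Trim AG, which were also the deepest (39940087 to 42672584 counts), and the part of depth was not tested. These libraries carried the trend on gene length too. It was not removed for any interaction, so its part in these results was not tested.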

How the results depend on the processing

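Of 3030 refits of single genes under the alternatives, 2832 left the call as it was. A call was lost in 84, gained in 114, and reversed in direction in 0. The direction of genes called in neither fit was not compared. Without a fold threshold the members called were 10, 10, 8 and 9 for hypoxia against normoxia under miR-125b, Plus A, and then Trim A and Trim AG, 9, 9 and 8 against MC in hypoxia for miR-125b, Plus A and then Trim A, 7 and 1 for Plus A and Trim A against miR-125b in hypoxia, and 8 and 4 for Trim AG and Trim AGU in normoxia. Under that rule 0% to 59.5% of all genes passed, depending on the comparison. DESeq2 called 1 member for Trim A against miR-125b in hypoxia, and 3, 4 and 3 for the interactions with Plus A, Trim A and Trim AGU. With library size only, 3 were called under miR-125b for oxygen and 0 for the interaction with Trim A, and with the length trend removed 2 were called under miR-125b for oxygen. With all libraries in 1 fit, 0 were called for Trim A in normoxia and for its interaction, and 2 for the interaction with Trim AGU. Without the filter on low counts the interaction with Trim A had 2. Apart from the block and single libraries below, the other alternatives left the counts within 1.5 times, and the cause of these shifts was not tested.

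Replicate numbers are shared between the groups, but deviations of same-numbered libraries correlated by only -0.233 to 0.0894, and the numbers paired the samples in 0 of 18 comparisons. With the replicate block 0 members were called for Trim AGU against miR-125b in hypoxia and for the interactions with Trim A and Trim AGU. With it *Plod1* was called with Trim A against MC in hypoxia (-0.60, adjusted p = 0.0104). Nothing read here says that same-numbered libraries share more than a number. The 18 comparisons did not set the Trim isomiRs against each other. In hypoxia the length slope was lowest in replicate 2 and nearest 0 in replicate 1 of each. The slopes were -0.012, -0.141 and -0.126 (Trim A), -0.045, -0.151 and -0.100 (Trim AG) and -0.065, -0.307 and -0.146 (Trim AGU). Whether a shared batch or handling gave this order was not tested.

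Leaving out each library in turn gave 1 to 2, 3 to 4, 2 to 5, 4 to 7 and 2 to 3 members called for oxygen under miR-125b, then Plus A, then Trim A, then Trim AG and then Trim AGU. Against MC the ranges were 3 to 3, 3 to 4, 5 to 5, 6 to 7 and 3 to 6. Against miR-125b in hypoxia they were 0 to 0, 0 to 3, 6 to 6 and 0 to 3, in normoxia 0 to 0, 0 to 1, 3 to 4 and 2 to 2, and for the interactions 0 to 0, 0 to 8, 6 to 7 and 0 to 5. The shares of all genes called in these refits are not given here. Both normoxia libraries that resembled the other group were left out together for Plus A against miR-125b in normoxia, with 0 members called. In the other comparisons at most 1 of them was present, apart from the interaction with Plus A, where only each alone was left out.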
